A study of Homo sapiens with 12 samples.

Results

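Among 12 RNA sequencing libraries of a human mammary epithelial cell line, 3 stood apart by carrying more of their counts on long transcripts: replicate 2 of the control line, replicate 3 of the CT83 line and replicate 1 of the HORMAD1 line. They were chosen by that measured trend, as the library of each line whose counts rose most with transcript length, and they are called the long-transcript-rich libraries here. They were set against the other 6 libraries of the same 3 lines, with the line as a block. Every gene value below comes from the counts that chose the libraries, so gene differences are given as descriptions, without a p-value.

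The HMLE line derives from normal breast epithelium and was immortalised by the SV40 early region and telomerase. The control line carried a control construct, the CT83 line overexpressed CT83, and the HORMAD1 line overexpressed HORMAD1. A further line overexpressed both genes and was left out of the comparison; its 3 libraries are quoted where they help. All lines had been selected with puromycin, each construct is represented by 1 derived line, and the labels list no other treatment. The libraries of a line differ by replicate number alone, and the labels do not say whether replicates were separate cultures, so their spread may be technical. HORMAD1 is a meiotic chromosome axis protein and CT83 a cancer/testis antigen, and both are normally made mainly in germ cells.

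The labels give poly(A) RNA. In mRNA, the coding sequence decides the size of the protein, and very long coding sequences belong to a small set of functional families: cytoskeletal linkers, motor proteins, chromatin regulators, matrix proteins and giant kinases. Ribosomal, mitochondrial and proteasomal subunits are small proteins with short coding sequences. The proliferation marker Ki-67 (gene MKI67), which coats mitotic chromosomes, and plectin (PLEC), which ties intermediate filaments to other cytoskeletal systems and to hemidesmosomes, are both encoded by long coding sequences and served as markers of these libraries.

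Total counts per library differed between the sets by less than their spread. The long-transcript-rich libraries had 11359326, 10399480 and 14159740 counts in the control, CT83 and HORMAD1 line, and the others had between 10508868 and 13322838. Means were 11972849 and 11759211, a difference of 213638 counts, with p = 0.815 in a two-sided exact permutation test over the 27 arrangements within lines, whose smallest possible p is 0.0370. The transgenes followed the labels in every library. CT83 had 724 CPM, a count scaled by the library total and normalised across libraries, in the long-transcript-rich library of the CT83 line and 400 and 448 CPM in the other 2. HORMAD1 had 203 CPM in the long-transcript-rich library of the HORMAD1 line and 333 and 336 CPM in the other 2. Each transgene had 0 counts in the lines without its construct, where 3 counts would give from 0.212 to 0.288 CPM.

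Markers of basal mammary epithelium were present in both sets. KRT5, a basal keratin, had 3028, 3075 and 2408 CPM in the long-transcript-rich libraries of the control, CT83 and HORMAD1 line and from 2676 to 3133 CPM in the others. TP63, a basal epithelial transcription factor, had from 130 to 152 CPM in the long-transcript-rich libraries and from 131 to 152 CPM in the others, and the adhesion genes CDH1 and EPCAM were present throughout. The 12 fibroblast markers summed to between 132 and 147 CPM in the long-transcript-rich libraries and between 103 and 161 CPM in the others. The sum hides 1 library among the others, control replicate 3, which stood out in collagens. It had 18.9 CPM of COL1A2, 6.58 of COL3A1 and 43.4 of COL1A1. The remaining libraries compared had at most 0.434, 0.957 and 23.6 CPM. FBLN1, the largest part of each sum, was lowest in control replicate 3, at 57.9 CPM. The 10 blood and endothelial markers summed to at most 7.81 CPM in the long-transcript-rich libraries and 9.02 CPM in the others, and the defining markers PTPRC and HBB had no count in any of the 9 libraries.

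The trend used for the choice was the slope of a library's log2 CPM, relative to the mean of its line, on the log2 length of each gene's longest transcript. It was 0.0234, 0.0371 and 0.0474 in the long-transcript-rich libraries of the control, CT83 and HORMAD1 line. Among the other libraries the slope closest to them was -0.0082 in control replicate 1, and the lowest was -0.0299 in HORMAD1 replicate 3. Within the 3 lines every chosen slope was above 0 and every other slope was below 0, where the slopes of a line are set against its own mean and so add up to about 0. In the double line, which the choice did not consider, replicate 3 reached 0.0260, between the values of the control and CT83 libraries that were chosen, while replicates 1 and 2 had -0.0219 and -0.0041.

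**Figure D1:**
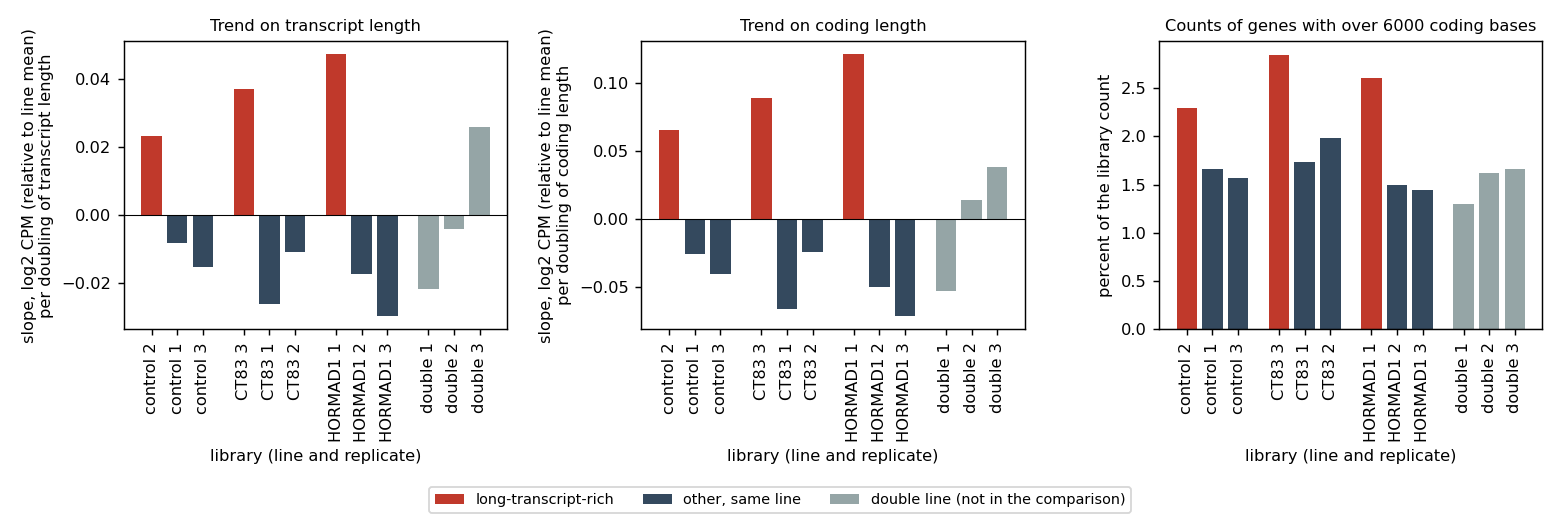
Slopes of log2 CPM on transcript length (left) and on coding length (middle), and the percent of each library's count in genes with over 6000 coding bases (right), for 12 libraries; each bar is 1 library, red for long-transcript-rich, dark for other libraries of the same line, grey for the double line. The red bars lie above both dark bars of their line in each panel, with 2.29%, 2.84% and 2.61% of counts in genes with long coding sequences.

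The share of counts on genes with long coding sequences gives the size of the trend. Genes with over 6000 coding bases took 2.29%, 2.84% and 2.61% of the counts in the long-transcript-rich libraries of the control, CT83 and HORMAD1 line, against 1.66% and 1.56%, 1.73% and 1.99%, and 1.4996% and 1.44% in the other libraries of those lines. In the double line the shares were 1.30%, 1.62% and 1.66%, below every long-transcript-rich library. Cytosolic ribosomal protein genes took 6.84%, 6.20% and 6.66% of the counts in the long-transcript-rich libraries and from 7.18% to 7.65% in the others, so the ranges did not overlap. Mitochondrially encoded genes took 0.639%, 0.536% and 0.583% in the long-transcript-rich libraries, below both other libraries of each line, whose shares ran from 0.605% to 0.865%. The 10 most abundant genes took from 4.67% to 4.93% of the counts in the long-transcript-rich libraries and from 4.81% to 5.32% in the others.

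Across 15792 tested genes the long-transcript-rich libraries differed from the others unevenly in the upward and downward directions. A long-transcript-rich library lay above both other libraries of its line in all 3 lines for 2562 genes (16.2%), and below both in all 3 lines for 2227 genes (14.1%). At least 2-fold differences ran mostly one way, with 372 genes higher and 19 lower in the long-transcript-rich libraries. The fitted log2 fold change, long-transcript-rich over other libraries, had a median of -0.01, a 5th percentile of -0.31 and a 95th percentile of 0.74. edgeR's quasi-likelihood test called 1828 genes higher (11.6%) and 1073 lower (6.79%) at an adjusted p of 0.05. Because the same counts chose the libraries, nothing is read from these calls. The number called lower was 712, 651, 701, 655 and 613 without control replicate 3, CT83 replicate 1 and HORMAD1 replicates 1, 2 and 3, each left out alone. Calls split into 63.0% higher with the main scaling, 75.6% with library size alone and 57.5% with upper-quartile scaling.

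MKI67, which marks cycling cells, had the highest fold change among protein-coding genes with a mean log2 CPM of at least 5 that were above both same-line libraries in all 3 lines. It had 136, 242 and 202 CPM in the long-transcript-rich libraries of the control, CT83 and HORMAD1 line, against 23.5 and 19.6, 31.8 and 104, and 13.04 and 17.5 CPM in the other libraries of those lines. The sets did not overlap within any line, and CT83 replicate 2 stood between the 2 sets. The log2 fold change was 2.72 with a standard error (SE) of 0.49, a 6.59-fold difference. Leaving out 1 library gave from 4.63-fold, without HORMAD1 replicate 1, to 9.06-fold, without CT83 replicate 3, and 8.67-fold without CT83 replicate 2. The double line had 17.4, 34.02 and 27.95 CPM, all below the lowest long-transcript-rich value. In bulk libraries a different number of cells with a transcript and a different amount of it per cell cannot be told apart.

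PLEC had 564, 972 and 609 CPM in the long-transcript-rich libraries, against 167 and 143, 196 and 364, and 111 and 113 CPM in the other libraries of the control, CT83 and HORMAD1 line. Its log2 fold change was 2.04 (SE 0.22). The long-transcript-rich values lay above all 6 others, of which CT83 replicate 2 was again the highest. In the double line, replicate 1 had 54.1 CPM, and replicates 2 and 3 had 231 and 187 CPM.

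The other genes that led the list are long as well, and they serve unrelated functions. RRBP1, a ribosome-binding protein of the endoplasmic reticulum, had 90.6, 152 and 111 CPM in the long-transcript-rich libraries and from 12.3 to 69.3 CPM in the others (log2 fold change 2.15, SE 0.35). NUMA1, which anchors microtubules at the spindle poles, had 133, 215 and 198 CPM in the long-transcript-rich libraries and from 30.9 to 103 CPM in the others (1.91, SE 0.30). An antisense entry inside NUMA1 was counted at 35.4% of its level and moved with it, and whether counting used strand is not stated, so their reads cannot be told apart. TCOF1, the nucleolar protein treacle, had 119, 211 and 152 CPM in the long-transcript-rich libraries and from 30.7 to 91.8 CPM in the others (1.77, SE 0.21). In each of these 3 genes the highest of the other libraries was CT83 replicate 2.

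**Figure D2:**
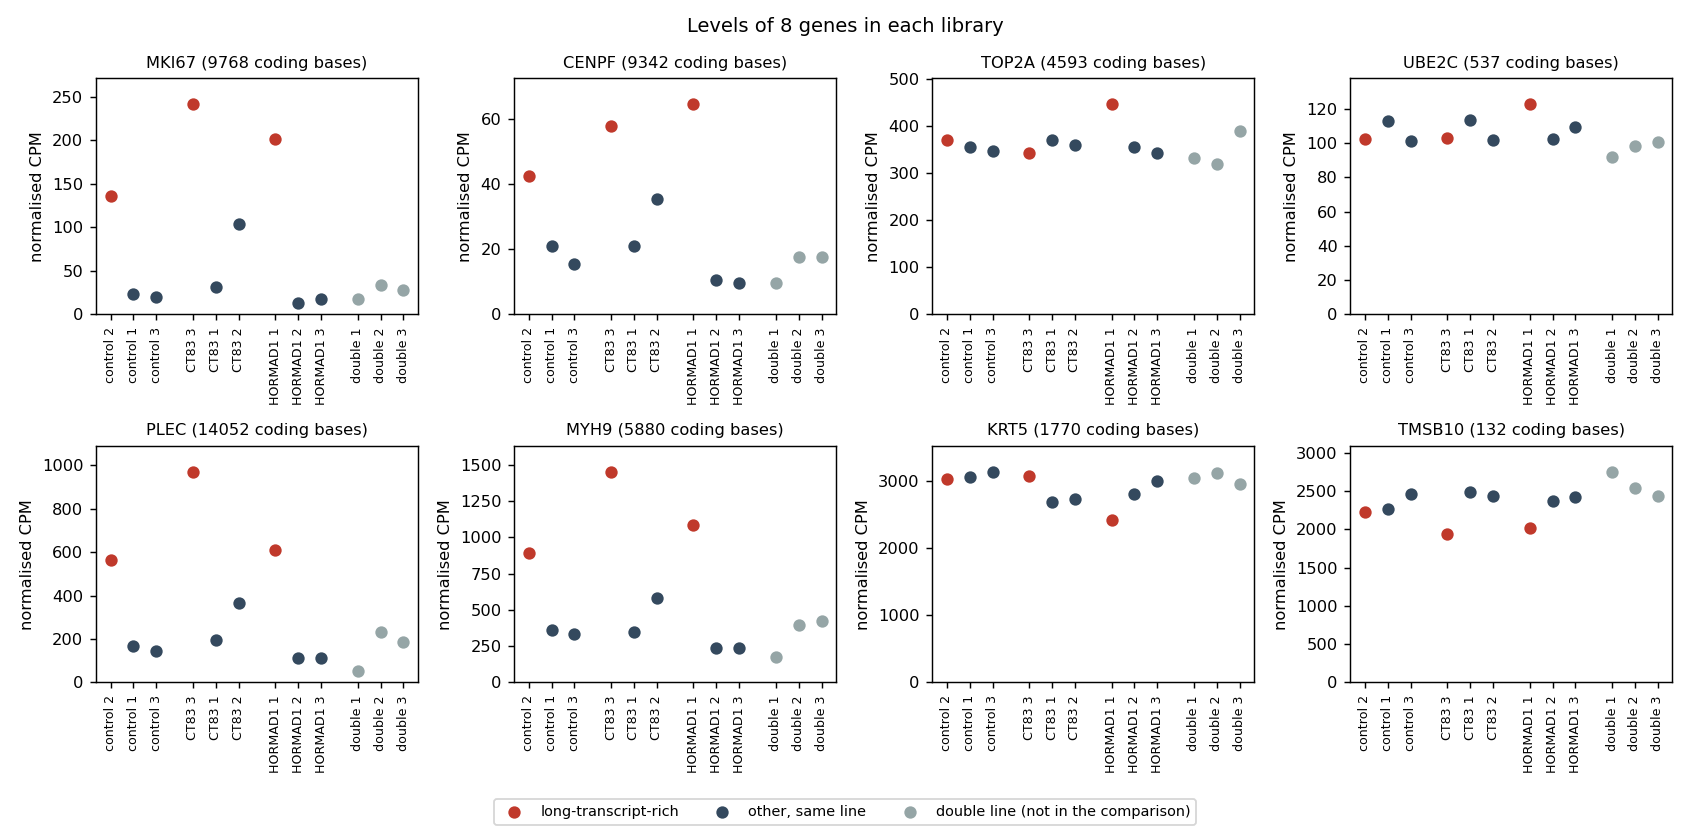
Normalised CPM of 8 genes in 12 libraries, 1 point a library, on axes that start at 0; red points are the long-transcript-rich libraries, dark points the other libraries of the same line, and grey points the double line. MKI67, CENPF, PLEC and MYH9 have their red points above the dark ones of each line, while TOP2A, UBE2C and KRT5 do not separate in all 3 lines and TMSB10 has its red points below.

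Mitosis genes differed by coding length in their medians. Of 45 tested, 8 were above both same-line libraries in all 3 lines and 13 were below (over all genes 16.2% above and 14.1% below), with a median log2 fold change of -0.05 that was -0.08 without HORMAD1 replicate 1. The 10 with over 3000 coding bases had a median of 0.31, and 6 of them were above, while the 35 shorter ones had a median of -0.13, with 2 above and 13 below. CENPF, a large kinetochore protein, had 42.5, 57.8 and 64.8 CPM in the long-transcript-rich libraries and from 9.68 to 35.6 CPM in the others (log2 fold change 1.64, SE 0.34). CENPE, the kinetochore kinesin, had 29.6, 42.6 and 43.6 CPM in the long-transcript-rich libraries and from 8.99 to 26.3 CPM in the others (1.30, SE 0.25).

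TOP2A, UBE2C and CKS2 are further proliferation genes of the fixed set. TOP2A, the topoisomerase of dividing cells with 4593 coding bases, had 370, 343 and 447 CPM in the long-transcript-rich libraries and from 343 to 371 CPM in the others (log2 fold change 0.12, SE 0.07). UBE2C, a ubiquitin-conjugating enzyme of mitotic exit, had 102, 103 and 123 CPM in the long-transcript-rich libraries and from 101 to 113 CPM in the others (0.03, SE 0.07). CKS2, a small cyclin-dependent kinase subunit with 237 coding bases, had 141, 128 and 145 CPM in the long-transcript-rich libraries and from 163 to 176 CPM in the others (-0.29, SE 0.06). The sets overlapped for TOP2A, in spite of its length, and for UBE2C, and did not overlap for CKS2.

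DNA replication genes had the same split. Of 38 tested, 5 were above and 17 below both same-line libraries in all 3 lines (over all genes 16.2% above and 14.1% below). The median log2 fold change was -0.11. The 4 with over 3000 coding bases had a median of 0.30 and the 34 shorter ones -0.13. POLE, the catalytic subunit of DNA polymerase epsilon, had 52.7, 66.7 and 59.0 CPM in the long-transcript-rich libraries and from 35.6 to 46.1 CPM in the others (log2 fold change 0.54, SE 0.08). RPA3, the smallest subunit of the single-stranded DNA binding complex, had 49.2, 43.6 and 49.96 CPM in the long-transcript-rich libraries and from 57.0 to 65.0 CPM in the others (-0.35, SE 0.07). CDT1, a replication licensing factor with 1638 coding bases, stood against the split, with 48.9, 59.8 and 54.7 CPM in the long-transcript-rich libraries and from 36.5 to 49.97 CPM in the others (0.40, SE 0.09).

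Of 32 genes of double-strand break and crosslink repair, 8 were above and 3 below, with a median of 0.01 that changed sign when single libraries were left out, to -0.02 without CT83 replicate 1 and 0.03 without CT83 replicate 3. Over all genes 16.2% were above and 14.1% below. The 14 with over 3000 coding bases had a median of 0.11 and the 18 shorter ones -0.07. BRCA1, a ubiquitin ligase of homologous recombination, had 55.3, 64.7 and 70.2 CPM in the long-transcript-rich libraries and from 39.1 to 51.0 CPM in the others (log2 fold change 0.47, SE 0.09). BRCA2, which loads the recombinase onto DNA, had 22.0, 29.5 and 24.8 CPM in the long-transcript-rich libraries. The others had from 17.2 to 24.3 CPM (0.31, SE 0.10), so its sets overlapped across lines. In the control line they were nearly tied, with 21.964 CPM in the long-transcript-rich library and 21.954 in replicate 1.

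The giant cytoskeletal linkers had the highest median of the lists. Of 27 tested, 23 were above both same-line libraries in all 3 lines and none was below (over all genes 16.2% above and 14.1% below). The median log2 fold change was 0.99. MYH9, the heavy chain of non-muscle myosin, had 894, 1455 and 1087 CPM in the long-transcript-rich libraries and from 240 to 583 CPM in the others (1.74, SE 0.20). PPL, the cornified envelope linker periplakin, had 85.7, 134 and 127 CPM in the long-transcript-rich libraries and from 18.2 to 60.2 CPM in the others (1.93, SE 0.28).

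Within this family the size of the difference did not follow length alone. MACF1, a microtubule-actin linker with 22776 coding bases, had a log2 fold change of 1.43 (SE 0.17). DST, dystonin, with 22383 coding bases, had 0.84 (SE 0.13). AHNAK, a giant scaffold protein with 17670 coding bases, had 1.02 (SE 0.10), and the actin crosslinker FLNA, with 7941, had 0.99 (SE 0.08). Each of these 4 genes was above both same-line libraries in all 3 lines.

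Microtubule motors were higher with smaller differences. Of 14 tested, 11 were above and none below (over all genes 16.2% above and 14.1% below), and the median was 0.39. DYNC1H1, the dynein heavy chain, with 13938 coding bases, had 298, 372 and 326 CPM in the long-transcript-rich libraries and from 155 to 267 CPM in the others (log2 fold change 0.71, SE 0.08). An antisense entry overlapping DYNC1H1 was counted at 48.7% of its level.

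Chromatin and transcription coregulators came second among lists with at least 10 tested members. Of 35 tested, 32 were above both same-line libraries in all 3 lines and none was below (over all genes 16.2% above and 14.1% below). The median was 0.88. EP400, a chromatin remodelling ATPase, had 36.6, 63.7 and 48.3 CPM in the long-transcript-rich libraries and from 8.80 to 28.02 CPM in the others (log2 fold change 1.77, SE 0.20), and an antisense entry that overlaps it was counted at 32.3% of its level. CREBBP, a histone acetyltransferase, had 32.2, 57.6 and 41.9 CPM in the long-transcript-rich libraries and from 8.12 to 23.4 CPM in the others (1.64, SE 0.17). For these genes no other library reached a long-transcript-rich one.

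Laminins, integrins and matrix genes were higher in most members. Of 33 tested, 20 were above and 1 below (over all genes 16.2% above and 14.1% below), with a median of 0.43. The 26 with over 3000 coding bases had a median of 0.51 against 0.05 in the 7 shorter ones. HSPG2, the basement membrane proteoglycan perlecan, had 46.5, 73.4 and 79.3 CPM in the long-transcript-rich libraries and from 8.79 to 46.9 CPM in the others (log2 fold change 1.96, SE 0.43). The highest of the others, CT83 replicate 2, passed the lowest of the long-transcript-rich libraries. COL7A1, the anchoring fibril collagen, had 81.4, 150 and 109 CPM in the long-transcript-rich libraries and from 19.0 to 69.9 CPM in the others (1.76, SE 0.26).

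Signalling kinases, ubiquitin ligases and large RNA proteins had medians between 0.25 and 0.42. Over all genes 16.2% were above and 14.1% below. Of 17 PI3K-like kinases and nutrient signalling genes, 12 were above and none below, with a median of 0.42. Of 17 large ubiquitin ligases, 10 were above and 1 below, with a median of 0.25. HUWE1, a giant ubiquitin ligase with 13122 coding bases, had 185, 249 and 243 CPM in the long-transcript-rich libraries and from 103 to 166 CPM in the others (log2 fold change 0.88, SE 0.11). PRKDC, the DNA-dependent protein kinase with 12384 coding bases, had 415, 466 and 459 CPM in the long-transcript-rich libraries and from 348 to 411 CPM in the others (0.26, SE 0.05). Neither gene had an overlap between the sets. Of 21 large splicing and RNA proteins, 13 were above and 1 below, with a median of 0.34.

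Small subunits of large complexes were lower, where over all genes 14.1% were below and 16.2% above. Of 74 cytosolic ribosomal protein genes, 62 were below both same-line libraries in all 3 lines and 1 was above, with a median log2 fold change of -0.23. Of 64 mitochondrial ribosomal protein genes, 46 were below and none above (median -0.21). Of 61 nuclear genes of oxidative phosphorylation, 39 were below and none above (-0.21). Of 28 proteasome genes, 18 were below and none above (-0.20). Of 17 small spliceosomal and LSm proteins, 9 were below and none above (-0.19), and of 18 chaperonin and prefoldin genes, 11 were below and none above (-0.18). Without HORMAD1 replicate 1 the medians were -0.11 in proteasome genes, -0.12 in spliceosomal and LSm proteins and -0.09 in chaperonin and prefoldin genes.

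PFDN4, a prefoldin subunit, had the largest difference among the named members of these lists (-0.47, SE 0.09). MRPS18B and RPL22L1, ribosomal protein genes that the lists do not hold, had -0.53 (SE 0.11) and -0.49 (SE 0.10). The lowest named members of the cytosolic ribosomal, oxidative phosphorylation and proteasome lists were as follows. RPS15A, a ribosomal protein of the small subunit, had 103, 95.1 and 101 CPM in the long-transcript-rich libraries and from 125 to 136 CPM in the others (log2 fold change -0.41, SE 0.06). NDUFA4, a subunit of the respiratory chain, had 88.2, 79.9 and 85.8 CPM in the long-transcript-rich libraries and from 110 to 121 CPM in the others (-0.45, SE 0.06). PSMB3, a proteasome core subunit, had 93.3, 89.8 and 82.4 CPM in the long-transcript-rich libraries and from 107 to 125 CPM in the others (-0.40, SE 0.06). The sets did not overlap for any of the 3. RPL41, a ribosomal protein, and TMSB10, an actin-sequestering thymosin, have very short coding sequences. The log2 fold change of RPL41 was -0.22 (SE 0.05) and that of TMSB10 was -0.22 (SE 0.06). TMSB10 shares its locus with an antisense-strand gene counted at 94.1% of its level.

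Of 13 mitochondrially encoded mRNAs, 4 were below and none above (over all genes 14.1% below and 16.2% above), with a median of -0.23. The median was -0.38 without control replicate 2 and -0.12 without HORMAD1 replicate 3, and the control line alone had -0.02. MT-CO2, a cytochrome oxidase subunit, had 1056, 874 and 778 CPM in the long-transcript-rich libraries and from 1170 to 1747 CPM in the others (log2 fold change -0.63, SE 0.18). Its values in the double line were 1387, 1495 and 775 CPM, and the lowest belonged to replicate 3.

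**Figure D3:**
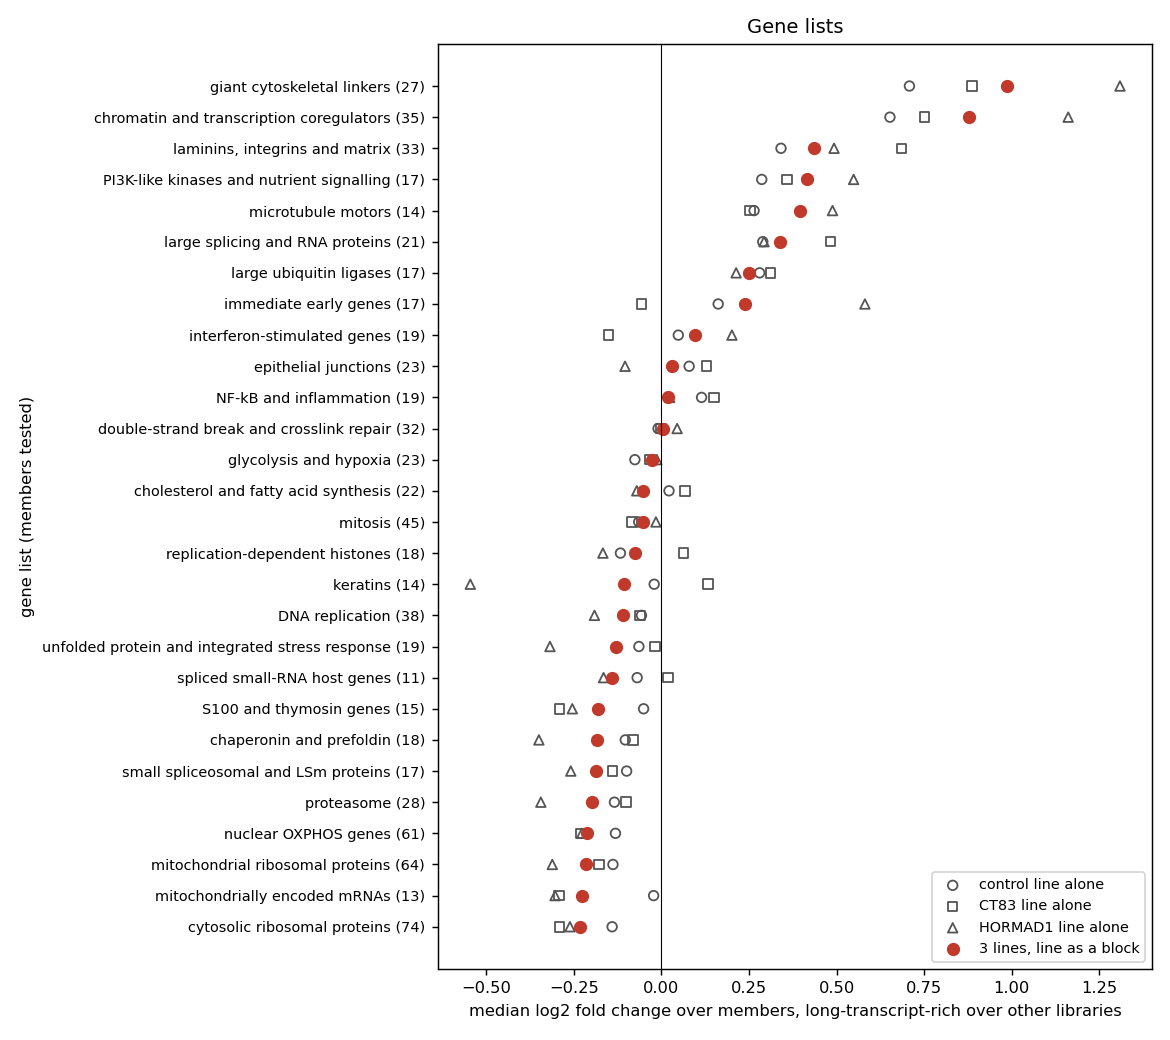
Median log2 fold change, long-transcript-rich over other libraries, of 28 gene lists with at least 10 tested members; filled points are the fit over 3 lines, open circles, squares and triangles the control, CT83 and HORMAD1 line alone. Giant cytoskeletal linkers (0.99) and chromatin coregulators (0.88) are at the top and cytosolic ribosomal proteins (-0.23) at the bottom.

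Lists of epithelial state, stress and metabolism had medians between -0.18 and 0.24, and over all genes 16.2% were above and 14.1% below. Of 14 keratin genes, none was above and 1 below, with a median of -0.11 that turned to 0.08 without HORMAD1 replicate 1, and the HORMAD1 line alone had -0.55. Of 23 junction genes, 7 were above and none below (0.03, and -0.04 without CT83 replicate 3), led by the long genes CGN, the tight junction adaptor cingulin (1.02, SE 0.11), and DSP, the desmosomal linker desmoplakin (0.74, SE 0.07). Of 19 inflammation and NF-kB genes, 3 were above and none below (0.02, and -0.09 without control replicate 2). Of 19 unfolded protein and stress response genes, 1 was above and 5 below (-0.13, and -0.03 without HORMAD1 replicate 1). Of 23 glycolysis and hypoxia genes, 2 were above and 8 below (-0.03), a median that turned to 0.01 with library size alone as the scaling and to 0.01 without HORMAD1 replicate 1. Of 22 cholesterol and fatty acid synthesis genes, 4 were above and 4 below (-0.05, and 0.04 without HORMAD1 replicate 1), a list in which FASN, fatty acid synthase with 7533 coding bases, had 0.91 (SE 0.17). Of 17 immediate early genes, 3 were above and none below (0.24, and 0.04 without HORMAD1 replicate 1). Of 19 interferon-stimulated genes, 2 were above and 1 below (0.09, and -0.01 without HORMAD1 replicate 1). Of 15 S100 and thymosin genes, none was above and 5 below (-0.18).

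Noncoding and other gene classes had long members that differed too. NEAT1, the scaffold RNA of nuclear paraspeckles, had 44.2, 83.4 and 59.8 CPM in the long-transcript-rich libraries and from 9.95 to 39.2 CPM in the others (log2 fold change 1.85, SE 0.31). MALAT1, a nuclear speckle RNA, had 22.2, 23.5 and 19.998 CPM in the long-transcript-rich libraries and from 8.50 to 17.1 CPM in the others (0.93, SE 0.13). SNHG14, whose longest transcript has 13074 bases, had 96.4, 103 and 106 CPM in the long-transcript-rich libraries and from 100 to 108 CPM in the others (-0.03, SE 0.06). It overlaps UBE3A on the opposite strand, counted at 97.5% of its level. The 11 spliced host genes of small RNAs had a median of -0.14, with 3 below and none above (over all genes 14.1% below and 16.2% above). The 332 processed pseudogenes had a median of -0.17.

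Gene features were set against the fold change over 11930 protein-coding genes, as a description across genes that share the same 9 libraries and are not independent. Spearman's rho was 0.34 with transcript length, the feature used for the choice. It was 0.46 with coding length, which overlaps with transcript length, 0.28 with GC content and 0.28 with the number of exon blocks. It was 0.17 with the genomic span, 0.14 with the longest exon and 0.09 with the length of the 3' untranslated region (UTR). It was -0.27 with the mean level, and in the control, CT83 and HORMAD1 line alone that value was -0.21, -0.02 and -0.35.

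Coding sequence and 3' UTR stood apart. The slope on coding length was 0.066, 0.089 and 0.121 in the long-transcript-rich libraries of the control, CT83 and HORMAD1 line. The mean difference from the other libraries was 0.138 per doubling of coding length, against 0.00787 per doubling of 3' UTR length plus 1 base. Some annotated 3' UTRs have 0 bases, so 1 base was added, and the scales of the slopes are not alike. Among genes with over 3000 coding bases the median log2 fold change was 0.28, 0.31, 0.26 and 0.27 with 3' UTRs of up to 500, up to 1000, up to 2000 and over 2000 bases. Among genes with up to 1000 coding bases it was -0.14, -0.12, -0.12 and -0.10 in the same order.

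Some genes with a long longest transcript and a short coding sequence were lower, here chosen for it. These lengths can come from different transcripts of a gene, and which transcript was present was not tested. The transcripts that gave the coding lengths have 3' UTRs of 102, 636 and 342 bases in MRPL42, TMED3 and MED28. MRPL42, a mitochondrial ribosomal protein, has a longest transcript of 15582 bases and a coding length of 465 bases. It had 58.1, 56.7 and 58.9 CPM in the long-transcript-rich libraries and from 65.85 to 80.3 CPM in the others (log2 fold change -0.39, SE 0.06). TMED3, a cargo receptor of the early secretory pathway with 16555 transcript and 651 coding bases, had 128, 136 and 106 CPM in the long-transcript-rich libraries and from 138 to 167 CPM in the others (-0.30, SE 0.08). MED28, a Mediator subunit with 10868 transcript and 537 coding bases, had 54.6, 48.0 and 53.3 CPM in the long-transcript-rich libraries and from 57.2 to 69.0 CPM in the others (-0.29, SE 0.06). In the 10% of genes with the longest transcripts, the 3 were among the 5 lowest protein-coding genes with a mean log2 CPM of at least 5. The naming rule asks for this, so they are an extreme and not the middle. The others of the 5, CYB5R4 and KCNJ15, had coding lengths of 1563 and 1125 bases. Their 3' UTRs were long, with 7549 and 6971 bases. Both were below both same-line libraries in all 3 lines (-0.38, SE 0.07, and -0.32, SE 0.08). All genes of the longest 10% had a median of 0.15, with 36.3% above in all 3 lines. Among protein-coding genes with a mean log2 CPM of at least 5 in the 10% with the shortest transcripts, the highest were near 0, and the first of them were the metallothionein MT1E at 0.02 (SE 0.17) and the acute phase gene SAA1 at 0.00 (SE 0.14).

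The difference was largest where a long coding sequence and a high GC content came together. With up to 500 coding bases the median log2 fold change was -0.16 at a GC content of up to 40% (149 genes) and -0.12 over 60% (117 genes). With over 6000 coding bases it was 0.31 at up to 40% (41 genes) and 1.18 over 60% (46 genes), where 84.8% of genes were above both same-line libraries in all 3 lines. The order along GC was not complete, since at over 6000 coding bases the median was 0.24 between 40% and 45%, under the 0.31 of the class below it. The control, CT83 and HORMAD1 line alone had 0.98, 0.83 and 1.73 in the class of longest and most GC-rich genes.

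**Figure D4:**
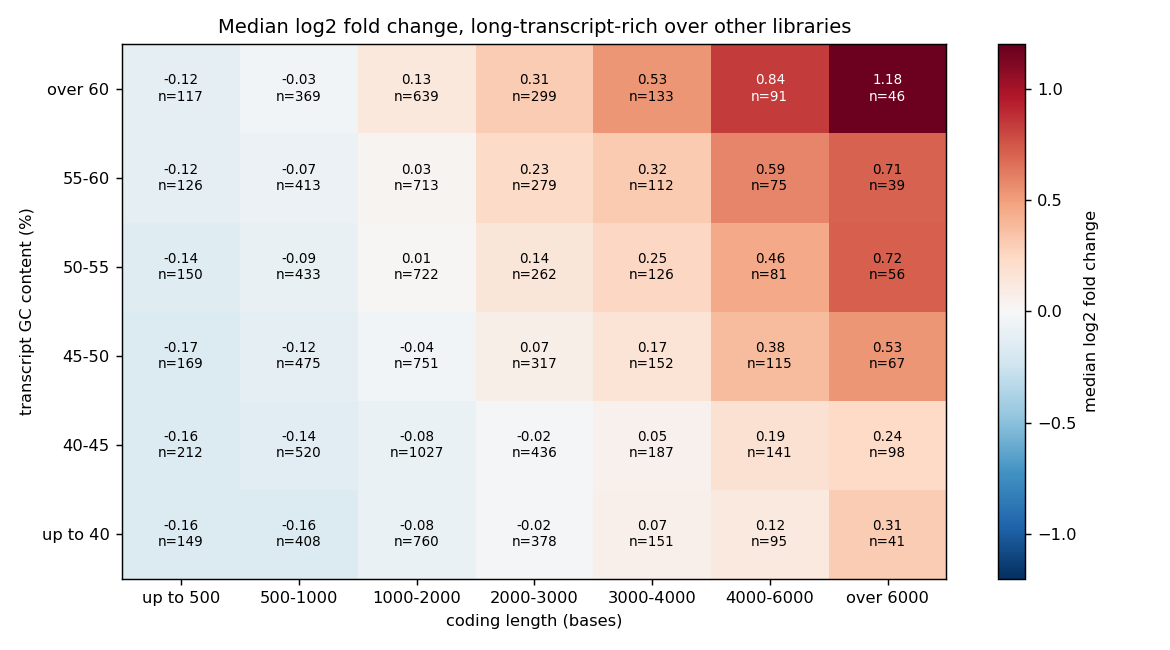
Median log2 fold change, long-transcript-rich over other libraries, of 11930 protein-coding genes by coding length (columns, bases) and transcript GC content (rows, percent), with the number of genes in each cell. Medians run from -0.17 among short genes to 1.18 in genes with over 6000 coding bases and over 60% GC.

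Stretches of coding sequence from both ends of the GC range among genes with over 6000 coding bases are shown beside the classes of GC content above. They come from 2 of the highest genes over 60% GC, with PLEC left aside, and from 2 of the lowest genes up to 40% GC. These genes have a mean log2 CPM over 5 and were picked after their values were seen. Each stretch is 90 bases from the centre of the gene's longest coding exon. All are on the minus strand of GRCh38, read 5′ to 3′ along the transcript from GENCODE 29, and capitals mark runs of at least 6 G or C bases.
TNRC18: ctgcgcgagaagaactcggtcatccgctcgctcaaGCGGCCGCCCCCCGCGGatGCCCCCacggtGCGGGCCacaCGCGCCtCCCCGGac
COL7A1: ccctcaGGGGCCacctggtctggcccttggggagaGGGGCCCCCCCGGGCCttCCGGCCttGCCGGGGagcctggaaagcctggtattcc
ASCC3: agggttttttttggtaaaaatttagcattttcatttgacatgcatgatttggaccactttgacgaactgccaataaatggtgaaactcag
MED13: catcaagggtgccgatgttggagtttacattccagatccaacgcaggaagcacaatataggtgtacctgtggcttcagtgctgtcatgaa

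The TNRC18 stretch, in a gene of a large chromatin-associated protein, lies at chr7:5388459-5388548 and has 75.6% GC. The COL7A1 stretch lies at chr3:48575394-48575483 and has 73.3% GC. The ASCC3 stretch, from a helicase gene, lies at chr6:100848382-100848471 and has 34.4% GC, and the MED13 stretch, from a Mediator kinase module gene, lies at chr17:61982611-61982700 and has 47.8% GC. Over whole transcripts such runs came 25.9 and 17.1 times per 1000 bases in TNRC18 and COL7A1, against 1.96 and 1.15 times in ASCC3 and MED13. The log2 fold change was 1.80 (SE 0.24) in TNRC18 and 1.76 (SE 0.26) in COL7A1, while it was -0.03 (SE 0.06) in ASCC3 and 0.06 (SE 0.06) in MED13. Coding lengths were 8904, 8832, 6606 and 6522 bases in that order.

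The mean level of a gene also varied with the difference. Among genes with over 3000 coding bases the median log2 fold change was 0.37 at a mean log2 CPM between 3 and 5 (630 genes) and 0.12 over 7 (142 genes). Among genes with up to 1000 coding bases it was 0.08 at a mean log2 CPM of up to 1 (311 genes) and -0.17 over 7 (581 genes). At every level the long genes had the higher median.

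Taken line by line, genes with over 6000 coding bases had a median of 0.38, 0.46 and 0.71 in the control, CT83 and HORMAD1 line. In the CT83 line the contrast is set against an uneven pair, since replicate 2 was nearer to the long-transcript-rich library than replicate 1 for MKI67, PLEC, NUMA1, RRBP1 and MYH9. In the double line, which entered no fit, replicate 1 was the lowest of its 3 libraries for MKI67, PLEC, MYH9, NUMA1 and RRBP1, and its slope on coding length was -0.053, with 0.014 and 0.038 in replicates 2 and 3.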

How the data were processed

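Poly(A) RNA of 4 HMLE lines was sequenced with the NEBNext Ultra kit, 3 libraries a line, per the labels. The deposited values used here are expected counts per gene for 61533 gene entries, of which 6.75% were not whole; they were rounded, which moved no value by more than 0.5. The submitters' processing notes name Trimmomatic 0.39, STAR 2.7.5c, Picard and SAMtools, and the builds hg38 and hg19. Which tool counted, on which annotation and with which strand setting, is not given in the sources used here. Whole counts had been assumed in the planned test.

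The 3 long-transcript-rich libraries and the gene lists were chosen with earlier results of these data known. edgeR 4.0.16 (R 4.3.3) fitted line and library class to 9 libraries with TMM scaling and a filter at a minimum count of 10, leaving 15792 genes, 5 residual degrees of freedom and a median SE of 0.11 for the log2 fold change. Printed CPM use 1 TMM scale over 12 libraries. Log2 CPM for slopes used a prior count of 2. Lengths and GC content came from GENCODE 29 (GRCh38), which held 58312 of the gene entries. Transcript length and GC content are those of a gene's longest transcript. Coding and 3' UTR length are those of the transcript with its longest coding sequence, which can be another transcript. A transcript length was available for 15499 tested genes and a coding length for 11930 protein-coding genes. The list names were matched by symbol, and 1 list member was not matched. The fit was tested on simulated counts with known changes.

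Named genes were MKI67, PLEC, the transgenes, the 8 highest and 8 lowest protein-coding genes outside both same-line libraries in all 3 lines with a mean log2 CPM of at least 5, up to 3 genes a list at a log2 CPM of at least 4, the 5 genes most against the trend at each end of the length range, and a fixed set; the text prints part of them. ASCC3 and MED13 were chosen after their values were seen. Alternatives used limma 3.58.1 (voom), DESeq2 1.42.0, other scalings and filters, a replicate block, and libraries or lines left out. All pairs of libraries within a line differed by more than sampling noise, so counts were not pooled and each library counted as 1 sample. That spread does not show whether the libraries were separate cultures. Total depth ran from 9898845 to 14159740 counts, and intervals of counts cover counting error alone.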

Additional observations from a re-analysis of the deposited data

Results flagged for a closer look

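For 8 gene lists, the list mean in the long-transcript-rich library lay above both other libraries in at least 1 line and below both in at least 1 other. The values are log2 differences of list means, long-transcript-rich minus the mean of the other 2 libraries of the line, and the difference between lines was not tested in any of them. Metallothioneins and ferritins had -0.10 in the control line, -0.28 in the CT83 line and 0.50 in the HORMAD1 line. Keratins had 0.09 in the control line, 0.15 in the CT83 line and -0.56 in the HORMAD1 line. Epithelial junction genes had 0.13 in the control line, 0.23 in the CT83 line and -0.02 in the HORMAD1 line. NF-kB and inflammation genes had 0.13 in the control line, 0.13 in the CT83 line and -0.29 in the HORMAD1 line. Immediate early genes had 0.23 in the control line, -0.19 in the CT83 line and 0.71 in the HORMAD1 line. Histone genes, a list that also holds the replication-independent H3-3A and H3-3B, had -0.12 in the control line, 0.14 in the CT83 line and -0.09 in the HORMAD1 line. Interferon-stimulated genes had -0.09 in the CT83 line and 0.13 in the HORMAD1 line. Fibroblast markers, with 7 of 12 tested, had -0.44 in the control line, 0.51 in the CT83 line and 0.59 in the HORMAD1 line. Relative to the control line's mean, the list mean was -0.07, -0.29 and 0.37 in replicates 1, 2 and 3. Much of the control line's value thus lies in replicate 3, the library that stood out in collagens.

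Values of 3 named members of these lists are as follows. EGR1, an immediate early transcription factor, had 46.4, 33.7 and 131 CPM in the long-transcript-rich libraries of the control, CT83 and HORMAD1 line, against 22.7 and 26.8, 62.7 and 72.5, and 20.9 and 17.5 CPM in the others. KRT14, a basal keratin, had 472, 498 and 264 CPM in the long-transcript-rich libraries, against 447 and 559, 492 and 568, and 443 and 492 CPM in the others. CXCL8, a neutrophil chemokine, had 51.4, 39.3 and 28.5 CPM in the long-transcript-rich libraries, against 50.3 and 55.7, 42.5 and 41.5, and 98.3 and 104 CPM in the others.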

How the results depend on the processing

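The number of genes called higher was 1828, and 1161 with the control line left out and 1188 with the HORMAD1 line left out. The number called lower was 1073. It was 650 with library size alone, 421 without the control line and 476 without the HORMAD1 line, and leaving out 1 library gave from 613 to 1538. DESeq2 called 1534 genes higher and 799 lower, and limma-voom 1859 and 1082. Genes above both same-line libraries numbered 3922 without the CT83 line, where 1 line fewer has to be passed. Genes below both numbered 3963 without the CT83 line and 3410 without the HORMAD1 line. The slope difference on transcript length, 0.0539, was 0.138 on coding length, 0.0297 with no filter on low counts and 0.117 in protein-coding genes alone, and leaving out 1 library gave from 0.0482 to 0.0602. The slope difference on coding length, 0.138, was 0.00787 with the 3' UTR in its place, an alternative chosen after seeing the data. The cause of these shifts was not tested. List medians changed sign by more than the spread between lines for NF-kB and inflammation genes (-0.0862 without control replicate 2, -0.0866 without the control line, and up to 0.149 without HORMAD1 replicate 1), cholesterol and fatty acid synthesis (0.0397 without HORMAD1 replicate 1, 0.0396 without the HORMAD1 line, and down to -0.0744 without control replicate 2) and glycolysis and hypoxia (0.0120 with library size alone, 0.00721 without HORMAD1 replicate 1, 0.00717 without the HORMAD1 line, and down to -0.0711 without CT83 replicate 3). Keratins (0.0790), interferon-stimulated genes (-0.0104) and metallothioneins and ferritins (-0.211) changed sign within that spread without HORMAD1 replicate 1, as did other lists with medians near 0. Counting each list under each alternative as 1 value, 638 list medians moved by less than the spread between lines and 6 by more without a change of sign, and counting each gene likewise, 2686 fold changes moved by less and 2 by more. Deviations of same-numbered libraries correlated between -0.35 and 0.29, and a replicate block gave 1859 genes higher and 1037 lower. Each replicate number holds 1 chosen library, so the choice itself enters these correlations. Same-numbered pairs without a chosen library had 0.20, -0.05 and 0.29. These are not free of the choice either, since deviations within a line are set against libraries that include the chosen one. Whether replicate numbers pair the libraries cannot be told from these values. The comparison has 3 libraries against 6, with 1 library a line on one side.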
